A study of Mus musculus with 4 samples.

Results

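The nuclear genes of the mitochondrial respiratory chain and ATP synthase were examined in Men1 knockout mouse embryonic fibroblasts given back Men1 or given vector. Men1 encodes the nuclear scaffold protein menin. Members were the probe sets whose platform annotation gave exactly 1 gene symbol, that symbol starting with Nduf, Uqcr, Cox4, Cox5, Cox6, Cox7, Cox8 or Atp5, or being Sdha, Sdhb, Sdhc, Sdhd, Cyc1 or Cycs. There were 101 such probe sets for 73 genes, among 10833 single-gene probe sets for 8251 genes. They comprised 29 genes of complex I, 4 of complex II, 9 of complex III with cytochrome c, 15 of complex IV, 14 of ATP synthase and 2 complex I assembly factors. A further 10 probe sets for genes of these names carried several symbols and were left out.

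RNA was hybridised to 4 Affymetrix arrays, 2 from Men1 knockout fibroblasts complemented with Men1 and 2 from knockout fibroblasts complemented with vector. All 4 were labelled as Men1 knockout on a mixed FVB;129Sv background, so both groups carried the knockout and the comparison was between added Men1 and added vector. The cells grew in medium with 10% serum and were harvested 24 h after seeding at 70% density. The promoter that drives the added Men1, the number of clones and the age of the embryos are not given in the sources used here. Groups are called Men1 and vector below. The series sought genes downstream of menin. The labels do not say whether the 2 arrays of a group hold RNA from different cultures. The p-values therefore reflect how far these arrays scatter, and that scatter could be technical only.

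The respiratory chain passes electrons from NADH and succinate to oxygen and pumps protons across the inner mitochondrial membrane. Complex I takes electrons from NADH and complex II takes them from succinate. Ubiquinol carries them to complex III, cytochrome c carries them on to complex IV, and ATP synthase lets the protons flow back to make ATP. Most subunits are encoded in the nucleus, and a core set is encoded in mitochondrial DNA. Cultured fibroblasts also make much of their ATP by glycolysis.

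Among the genes with the smallest p in each complex, 8 had a window, signals above the controls and groups that did not overlap. A match to the NRF1, ETS or YY1 motif was present in 3 of the 8 and absent from 5. The 3 with a match are shown, with Cox5b as 1 of the 5 without, because nuclear respiratory factor 1 (NRF1) and the ETS factor GABP are known to act at many respiratory chain genes. Each window runs from 250 bases before to 50 after the annotated start, 5′ to 3′ on the strand of the gene, and is taken from RefSeq on GRCm38.p6. Capitals mark matches to the NRF1 motif (GCGCA, any base, GCGC), the ETS motif CCGGAAG or the YY1 motif ATGGCGGC on either strand. Atp5g2 and Atp5o encode a c-ring and a stalk subunit of ATP synthase, Ndufaf1 a complex I assembly factor and Cox5b a subunit of complex IV.
Atp5g2 promoter, chr15:102670998-102671297, minus strand: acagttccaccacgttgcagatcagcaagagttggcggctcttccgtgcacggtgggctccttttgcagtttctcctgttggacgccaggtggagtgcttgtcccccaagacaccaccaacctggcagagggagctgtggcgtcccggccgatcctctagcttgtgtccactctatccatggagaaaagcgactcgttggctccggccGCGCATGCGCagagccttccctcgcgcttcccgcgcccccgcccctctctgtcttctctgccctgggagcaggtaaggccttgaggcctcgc
Atp5o promoter, chr16:91931581-91931880, minus strand: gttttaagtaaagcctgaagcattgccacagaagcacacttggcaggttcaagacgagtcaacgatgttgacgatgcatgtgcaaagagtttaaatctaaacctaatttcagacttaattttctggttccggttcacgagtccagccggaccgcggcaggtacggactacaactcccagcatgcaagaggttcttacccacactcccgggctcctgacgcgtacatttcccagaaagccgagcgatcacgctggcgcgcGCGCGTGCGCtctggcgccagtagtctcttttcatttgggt
Ndufaf1 promoter, chr2:119662785-119663084, minus strand: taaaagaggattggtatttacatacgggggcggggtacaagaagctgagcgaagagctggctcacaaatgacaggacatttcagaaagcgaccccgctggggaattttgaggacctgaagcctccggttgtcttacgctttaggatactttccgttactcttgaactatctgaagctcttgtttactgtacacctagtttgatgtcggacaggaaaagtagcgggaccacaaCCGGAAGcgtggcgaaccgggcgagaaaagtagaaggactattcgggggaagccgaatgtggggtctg
Cox5b promoter, chr1:36691237-36691536, plus strand: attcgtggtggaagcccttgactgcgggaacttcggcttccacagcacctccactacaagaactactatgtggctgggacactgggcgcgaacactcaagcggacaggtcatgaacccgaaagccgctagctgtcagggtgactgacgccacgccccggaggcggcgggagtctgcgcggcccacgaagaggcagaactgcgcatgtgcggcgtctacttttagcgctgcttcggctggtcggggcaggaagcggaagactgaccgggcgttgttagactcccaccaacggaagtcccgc

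Atp5g2 and Atp5o each held 1 NRF1 match and Ndufaf1 held 1 ETS match, whereas the Cox5b window held no match to these letters. The promoter table had windows for 59 of the 73 genes. The genes with no window were Atp5a1, Atp5mpl, Cox4i1, Cox6a2, Cox6c, Cox8c, Cyc1, Ndufa2, Ndufb9, Ndufs1, Sdhc, Uqcrb, Uqcrc2 and Uqcrq. The NRF1 motif was found in 12 of the 59 genes (20.3%), against 9.97% of 6572 named genes on the array and 5.19% of all 27025 genes in the table. The ETS motif was found in 16 (27.1%), against 17.1% and 9.93%. The YY1 motif was found in 4 (6.78%, against 4.72% of the named genes), the SP1 motif GGGCGG in 29 (49.2%, against 63.1%), and the E-box CACGTG in 5 (8.47%, against 11.5%). The ERR motif TCAAGGTCA was found in 1 (1.69%, against 0.30%). The 12 genes with an NRF1 match had a median log2 difference of -0.18, with 7 lower with Men1. The 47 without had a median of -0.06, with 29 lower. Medians with and without a match were -0.12 and -0.06 for ETS and -0.11 and -0.05 for SP1. They were -0.07 and -0.08 for YY1, 0.025 and -0.09 for the E-box, and -0.22 (1 gene) and -0.07 for ERR. These matches are a description of letters in the windows.

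Signals were analysed as log2(signal + 16), and each difference is the mean of the 2 Men1 arrays minus the mean of the 2 vector arrays on that scale, which understates the fold of dim probe sets. A gene with several probe sets was represented by the one with the highest mean signal. A signal was called at control level when it did not exceed the highest of 19 control probe sets for RNAs not found in mouse cells, which read 25.9 and 27.4 on the Men1 arrays and 15.9 and 20.0 on the vector arrays. Signals of a gene are given below as Men1 replicates 1 and 2 against vector replicates 1 and 2. Of the 73 genes, 65 were above these controls on every array, and 4 (Atp5j2, Cox8a, Ndufs4 and Cox7a1) were at control level in both groups.

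Men1 itself had 1 probe set, with signals of 18.8 and 22.5 where Men1 was added and 18.1 and 29.5 where vector was (difference -0.11, SE 0.22). Both signals of the Men1 arrays were at control level, both vector signals exceeded the controls and the groups overlapped, so the probe set does not check the labels. Where it lies relative to the deleted and the added sequence is not known here. Of 14 fibroblast markers 9 were above the controls on every array, with the collagen Col1a1 at 6057.4 to 7618.7, while Thy1 was on none. Epcam (epithelium), Ptprc (blood) and Cdh5 (endothelium) did not exceed the controls on any array. Other markers of the same types exceeded them on all 4, namely Cdh1 (93.7 to 165.2) and Krt19 (67.2 to 146.5) for epithelium. For endothelium this was Pecam1 (23.0 to 49.5), and for blood Cd68 (39.8 to 56.7) and Cd74 (51.7 to 70.5). In all, 2 of 7 epithelial, 2 of 6 blood, 1 of 6 endothelial, 1 of 7 adipocyte and 3 of 6 neural markers exceeded the controls on all 4. The neural marker Tubb3, a tubulin, read 909.1 and 823.6 against 1193.6 and 770.2. All 6 neural markers were lower with Men1 (median -0.22), but 3 exceeded the controls on no array and the groups overlapped for 5. Their median level relative to the mean of the 4 arrays was 0.01 and -0.16 with Men1 against -0.10 and 0.37 with vector. Vector replicate 2 thus stood apart. Of the 7 epithelial markers 6 were lower (median -0.18), and vector replicate 2 was again highest, at 0.27. The adipocyte marker Lep read 197.1 and 154.3 against 92.3 and 187.1. The part of these markers in the members' values was not tested. In bulk RNA, fewer cells of a type and less RNA per cell cannot be told apart.

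No member passed the limma threshold over the 12422 probe sets tested. None of the 101 member probe sets reached an unadjusted limma p under 0.05 either, where 1.88% of all probe sets did (0.966% lower and 0.91% higher), and none of all 12422 passed after Benjamini-Hochberg adjustment (0%). Across the 73 genes 46 were lower and 27 higher with Men1, where 53.0% of all 8251 named genes were lower. Among genes of mean signal of at least 50, 39 of 60 members were lower (median -0.07), against 51.9% of all such genes. The median difference was -0.06, against -0.01 over all named genes, and the median standard error of a single gene was 0.21. Of 64 member probe sets with a plain suffix, not marked by the array design as shared or less specific, 36 were lower (56.25%, median -0.016). Of the 37 others 26 were lower (70.3%, median -0.11), where 52.8% of all tested probe sets of any suffix were (median -0.01). The share lower was not taken by suffix over all probe sets, so neither kind has a background of its own here. In all, 14 genes (19.2%) differed by more than their own standard error, 11 of them lower, where 25.0% of all named genes did (13.6% lower and 11.3% higher). The 2 groups did not overlap for 14 genes, 11 lower and 3 higher, which is 19.2% of members where 22.1% of all named genes did not overlap (12.0% lower and 10.1% higher). That count is near the background and is not a result about the members.

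**Figure D1:**
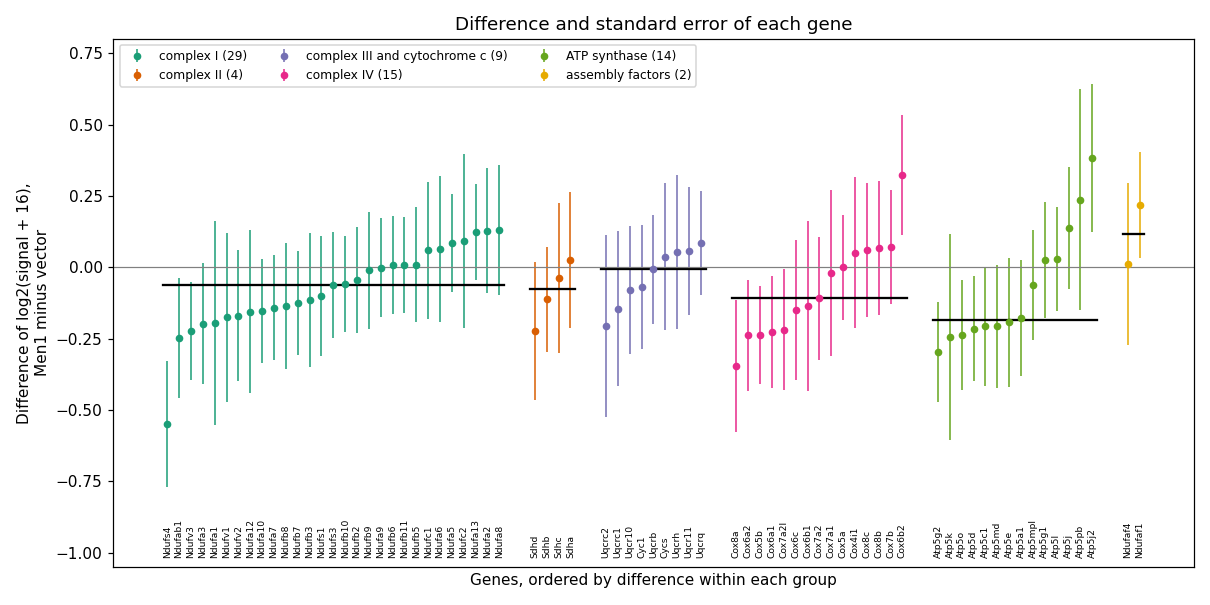
Difference in log2(signal + 16), Men1 minus vector, of the 73 genes with its standard error (bars), ordered within each complex. Black lines mark the medians, from -0.18 for ATP synthase to 0.11 for the assembly factors, and most bars cross 0.

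**Figure D2:**
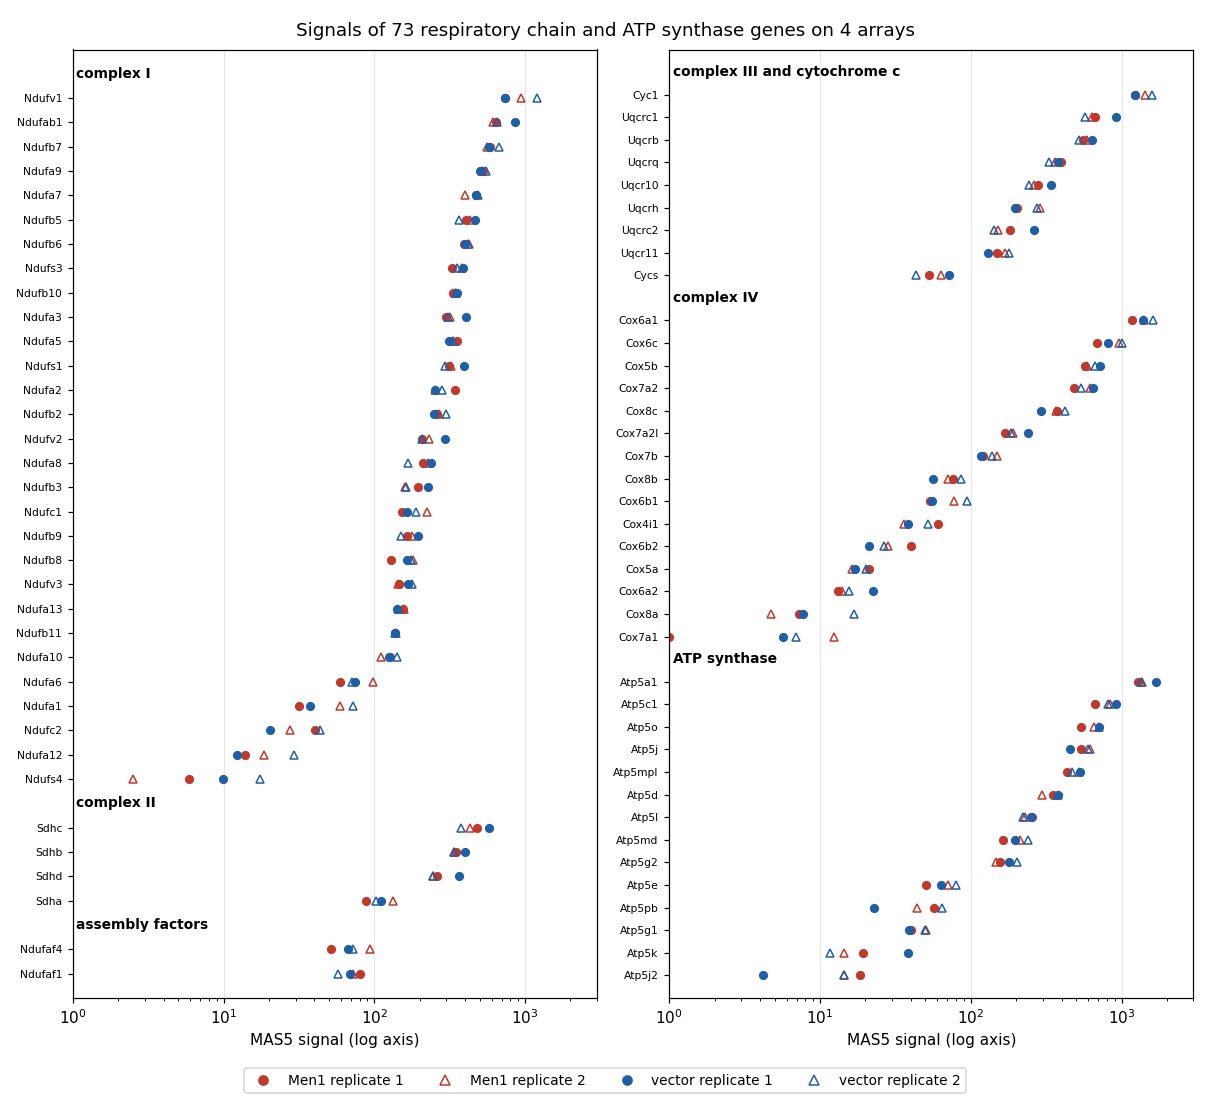
MAS5 signals (log axis) of the 73 genes on each of the 4 arrays, by complex. Red symbols are Men1 and blue are vector arrays, with filled circles for replicate 1 and open triangles for replicate 2; red and blue are interleaved for most genes.

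Among the arrays, vector replicate 1 held the highest signal for 27 of the 73 genes and vector replicate 2 for 24. Men1 replicate 1 was highest for 9 and Men1 replicate 2 for 13. These counts were not made over all named genes, so they are not read as a trait of the members. The numbers in the labels are not said to pair arrays, so all 4 pairings of a Men1 with a vector array are given. Men1 replicate 1 was below vector replicate 1 for 49 genes, with a median of -0.17 against 0.03 over all named genes, of which 44.6% were lower. Men1 replicate 2 was below vector replicate 2 for 35 genes, with a median of 0.0022 against -0.06 over all named genes, of which 59.0% were lower. Men1 replicate 1 was below vector replicate 2 for 48 genes, with a median of -0.11 against -0.08 over all named genes. Men1 replicate 2 was below vector replicate 1 for 40, with a median of -0.04 against 0.05. Within the groups, Men1 replicate 1 was below Men1 replicate 2 for 42 genes, with a median of -0.04 against -0.0067 over all named genes. Vector replicate 1 was below vector replicate 2 for 40, with a median of -0.05 against -0.12. The 2 pairings of like number share no array, and their differences over the 73 genes had a correlation of -0.36, against -0.14 over all named genes, with every gene read from the same arrays. In both of them 21 genes (28.8%) were lower, where 23.2% of all named genes were, and 9 (12.3%) were higher, where 19.1% were. Of the 49 genes lower in the replicate 1 pairing, 21 were thus also lower in the replicate 2 pairing.

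**Figure D3:**
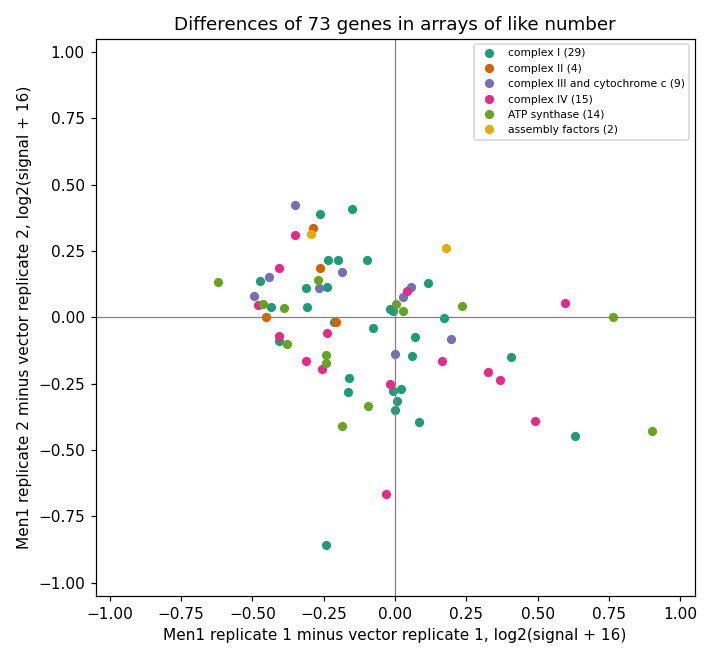
Differences of the 73 genes in log2(signal + 16) for arrays of like number, replicate 1 on the horizontal and replicate 2 on the vertical axis, coloured by complex. The horizontal values lie mostly below 0 (49 of 73), the vertical values do not (35 of 73).

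Complex I, the NADH dehydrogenase, had 19 genes lower and 10 higher, with a median of -0.06. The core subunits measured here were Ndufv1 and Ndufv2, of the NADH-binding module, with Ndufs1, which carries iron-sulfur clusters, and Ndufs3, of the arm that hands electrons to ubiquinone. All 4 were lower, with a median of -0.14, and none of them had groups that did not overlap. Ndufv1 read 735.0 and 932.2 against 735.4 and 1192.9, a difference of -0.18 (SE 0.30). The spread between its vector arrays was larger than the difference, and without vector replicate 2 it was 0.17. Ndufs1 read 313.6 and 320.3 against 393.5 and 295.2 (-0.10, SE 0.21), so the vector arrays lay on either side of the Men1 arrays. Ndufv2 read 206.5 and 229.1 against 293.3 and 207.1 (-0.17, SE 0.23). Its lower vector signal lay between the Men1 signals.

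Among the accessory subunits, Ndufv3, a small subunit of the NADH-binding module, read 146.5 and 143.2 against 166.2 and 177.5. Its mean was 145 ± 2.33 for Men1 and 172 ± 7.99 for vector arrays (SD, n = 2 each), and the difference was -0.22 (SE 0.17). Both Men1 arrays lay below both vector arrays, and the limma adjusted p was 1. Ndufab1, the mitochondrial acyl carrier protein, read 639.3 and 607.9 against 852.0 and 647.2 (-0.25, SE 0.21), where vector replicate 1 stood apart from the other arrays. Ndufa7 read 469.9 and 399.4 against 472.2 and 487.2 (-0.14, SE 0.18). Ndufb10, a membrane arm subunit, had a small difference (-0.06, SE 0.17) between close signals of 333.7 and 340.4 against 353.1 and 350.6. Ndufa13, also known as GRIM-19, was the only complex I gene higher with no overlap in its brightest probe set, at 154.9 and 157.6 against 141.7 and 142.6 (0.12, SE 0.17).

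Ndufs4, an accessory subunit needed for assembly and activity of complex I, had the smallest unadjusted p of the members (adjusted p = 1 in limma). It read 5.9 and 2.5 against 9.9 and 17.5, all at control level, so no fold is given. The bright Ndufa3 probe set read 297.6 and 316.1 against 408.4 and 307.0 (-0.20, SE 0.21), and its dim one differed by -0.28. Ndufb2 had a pair of bright probe sets of opposite sign, at 260.0 and 266.7 against 248.8 and 297.1 (-0.04, SE 0.19) and at 140.9 and 142.8 against 143.9 and 130.2 (0.05, SE 0.17). The remaining complex I genes lay between -0.20 and 0.13.

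The assembly factors Ndufaf1 and Ndufaf4, which help to build complex I, were not lower. Ndufaf1 read 80.1 and 71.9 against 69.0 and 57.4 (0.22, SE 0.19), and the groups did not overlap. Ndufaf4 read 51.4 and 93.8 against 66.6 and 72.2 (0.01, SE 0.28), so its Men1 arrays differed more than the groups.

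Complex II, succinate dehydrogenase, which also works in the citric acid cycle, had 3 of 4 genes lower. Sdhd, its membrane anchor, read 261.4 and 245.9 against 363.2 and 245.5 (-0.22, SE 0.24), and only vector replicate 1 stood above the rest. Sdhb, the iron-sulfur subunit, read 345.5 and 335.3 against 401.7 and 339.5 (-0.11, SE 0.18), and Sdhc, the other anchor, read 480.8 and 429.4 against 579.7 and 375.1 (-0.04, SE 0.26). Sdha, the flavoprotein, read 88.3 and 133.3 against 111.2 and 102.2 (0.03, SE 0.24). Vector replicate 1 was the highest array for 3 of the 4 genes. The median of complex II was -0.075 on all arrays, 0.061 without vector replicate 1 and -0.28 without vector replicate 2.

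Complex III and cytochrome c had 5 genes lower and 4 higher, with a median of -0.0079. Uqcrc1 and Uqcrc2, the core proteins, read 667.6 and 635.3 against 912.9 and 569.7 (-0.14, SE 0.27), and 181.6 and 152.2 against 262.2 and 142.9 (-0.21, SE 0.32). In both genes vector replicate 1 was the highest and vector replicate 2 the lowest array. Uqcrq, a small subunit, read 393.9 and 359.1 against 378.3 and 330.2 (0.09, SE 0.18). Uqcr10, another, read 278.5 and 262.4 against 338.2 and 242.0 (-0.08, SE 0.22). The 3 other small subunits measured (Uqcrb, Uqcrh and Uqcr11) lay between -0.0079 and 0.06, with overlapping groups. Without vector replicate 1 the median of the 9 genes was 0.15, and without vector replicate 2 it was -0.15.

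Cyc1, cytochrome c1, had a pair of probe sets of similar brightness that went opposite ways. The brighter one read 1224.0 and 1435.8 against 1224.4 and 1583.0 (-0.07, SE 0.22). The other read 1180.1 and 1232.3 against 1042.3 and 975.4, a difference of 0.25 (SE 0.17) with no overlap between the groups and a limma adjusted p of 1. The gene therefore has no settled direction on these arrays. Cycs, cytochrome c, read 52.8 and 63.5 against 71.7 and 43.2 (0.04, SE 0.26), and its groups overlapped.

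Complex IV, cytochrome c oxidase, had 10 genes lower and 5 higher, with a median of -0.11. That median was 0.02 without Men1 replicate 1 and also without vector replicate 2. Cox5b, a nuclear-encoded subunit on its matrix side, read 573.3 and 593.3 against 715.2 and 666.8. Its mean signal was 583 ± 14.1 against 691 ± 34.2 (SD, n = 2 each), a ratio of 0.844. The difference was -0.24 (SE 0.17), and both Men1 arrays lay below both vector arrays. Cox6a1, the common form of subunit 6a, read 1166.8 and 1397.9 against 1397.1 and 1604.0 (-0.23, SE 0.20), which overlap by a narrow margin. Cox7a2 read 486.1 and 612.7 against 649.0 and 536.4 (-0.11, SE 0.22), and Cox6b1 read 54.0 and 77.2 against 54.9 and 94.9 (-0.13, SE 0.30). The brightest Cox6c probe set and Cox7a2l, a factor that joins complexes III and IV, differed by -0.15 and -0.22. The groups overlapped for all 4 of these genes.

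The tissue forms of complex IV subunits were mostly dim. Cox6a2, the heart and muscle form of subunit 6a, read 13.1 and 14.0 against 22.6 and 15.5, and exceeded the controls only on vector replicate 1. Markers of skeletal and cardiac muscle summed to 543.9 and 532.4 with Men1 and 575.9 and 594.7 with vector over 13 genes, of which 9 were lower and 5 were above the controls on no array. Among them Myog, a muscle transcription factor, read 23.7 and 28.1 against 68.1 and 53.3 (-0.87, SE 0.20), and Tnni1, slow troponin I, read 61.4 and 74.5 against 111.9 and 105.4 (-0.57, SE 0.18), each with an adjusted p of 1 in limma. Ckm (-0.30), Tnnc1 (-0.15) and Des (-0.12) were also lower, with overlapping groups. Others lay the other way or near 0, with Tnnt2 at 0.42, Nppa at 0.22, Myh7 at 0.07 and Myod1, which specifies muscle, at -0.06. Their part in the Cox6a2 value was not tested. Cox7a1, another muscle form, read 1.0 and 12.4 against 5.7 and 6.9, at control level on every array. The brighter Cox8b probe set, for the muscle form of subunit 8, read 76.7 and 70.5 against 55.9 and 85.8 (0.07, SE 0.23), and the other read 12.8 and 12.8 against 9.9 and 31.3 (-0.28, SE 0.33). Cox8c, known as a testis form, read 371.0 and 364.6 against 292.6 and 423.3 in 1 probe set but at most 2.4 on any array in the other, so which of them reports the transcript is not settled. Cox6b2, also a testis form, was the only complex IV gene higher with no overlap in its brightest probe set (39.9 and 28.1 against 21.0 and 26.5, difference 0.32, SE 0.21), whereas another Cox6b2 probe set read 18.0 and 25.6 against 20.5 and 39.3 (-0.26, SE 0.27).

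The common forms of these subunits were dim as well in some cases. Cox4i1, the ubiquitous form of subunit 4, read 60.2 and 36.0 against 38.2 and 52.1 in its brighter probe set (0.05, SE 0.27). Its other probe set read 48.3 and 39.5 against 24.5 and 33.4 (0.42, SE 0.20) with no overlap. Cox5a read 21.1 and 16.2 against 17.1 and 20.1 (-0.0002, SE 0.18), with the Men1 signals at control level, and Cox8a read 7.2 and 4.7 against 7.7 and 16.8, at control level on every array. A second Cox5a probe set read 9.5 and 9.2 against 1.1 and 5.9, also at control level. Levels of different probe sets are not compared with each other here.

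ATP synthase had 9 genes lower and 5 higher, with a median of -0.18. That median was the lowest of the complexes on all arrays, but complex II or IV was lowest without any 1 array, with probe sets averaged and with plain probe sets. Atp5g2, a c-ring gene, read 156.8 and 147.9 against 180.5 and 201.6 in its brighter probe set, which has no plain suffix. Its mean was 152 ± 6.29 with Men1 and 191 ± 14.9 with vector (SD, n = 2 each), a ratio of 0.797, and the difference was -0.30 (SE 0.18). Atp5o, the stalk subunit also called OSCP, read 537.8 and 661.1 against 703.7 and 709.1 (-0.24, SE 0.19). In the Atp5o probe set and the brighter Atp5g2 one the groups did not overlap, and the limma adjusted p was 1. The dimmer Atp5g2 probe set, with a plain suffix, read 33.0 and 22.3 against 22.6 and 38.0 (-0.08, SE 0.26), and its groups overlapped.

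In the catalytic head and central stalk, Atp5a1, the alpha subunit, read 1294.3 and 1370.5 against 1701.1 and 1335.9 (-0.18, SE 0.20), with only vector replicate 1 above the rest. Atp5c1, the gamma subunit, had 2 probe sets of similar signal that went opposite ways. They read 664.0 and 843.4 against 921.6 and 814.9 (-0.21, SE 0.21), and 656.1 and 821.1 against 809.1 and 653.7 (0.01, SE 0.22). Atp5e, the epsilon subunit, read 50.8 and 70.9 against 63.1 and 79.9 (-0.19, SE 0.23). Of 5 probe sets for Atp5d, the delta subunit, the brightest read 352.7 and 296.3 against 378.2 and 377.4 (-0.21, SE 0.18), and the next 2 each differed by -0.19. All 3 had groups that did not overlap, and none of them had a plain suffix, which the 2 dim ones had. A dim one differed by 0.78 (40.7 and 65.2 against 33.7 and 15.3), also with no overlap. The other dim one differed by 0.04 (38.3 and 49.8 against 25.5 and 65.8), with overlap. Atp5g1, another c-ring gene, read 40.0 and 50.6 against 39.0 and 49.5 in one probe set (0.03, SE 0.20) and 27.9 and 35.7 against 32.2 and 41.9 in the other (-0.15, SE 0.20). Atp5j2, a membrane subunit, read 18.3 and 14.4 against 4.2 and 14.4, at control level on every array. Atp5j, a stalk subunit, differed by 0.14 and Atp5l, a further membrane subunit, by 0.03. The other ATP synthase genes, Atp5k, Atp5md, Atp5mpl and Atp5pb, differed by -0.24, -0.21, -0.06 and 0.24, and their groups overlapped.

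The ATP synthase median depended on the probe sets taken. It was -0.08 when all probe sets of a gene were averaged. When only probe sets with a plain suffix were used, which leaves out those that the array design marks as shared or less specific, it was 0.02. Without Men1 replicate 1 it was -0.04. Of 21 member genes with several probe sets, 8 had probe sets of opposite sign, and this held for 5 of the 8 genes with at least 2 probe sets above the controls.

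Other mitochondrial genes gave no pass over all probe sets. Of 17 carriers of ATP and phosphate and related genes 14 were lower, with a median of -0.13, where 53.0% of all named genes were lower. Slc25a3, the phosphate carrier that feeds ATP synthase, read 36.0 and 21.1 against 69.5 and 64.0 (-0.91, SE 0.23), with 1 Men1 signal under the controls, and Etfdh, which passes electrons from fatty acid oxidation to ubiquinone, read 33.6 and 31.8 against 69.7 and 49.6 (-0.62, SE 0.21). Both had groups that did not overlap and an unadjusted p under 0.05 in limma, where the adjusted p was 1. The groups did not overlap for 22.1% of all named genes, and 1.88% of all probe sets had such an unadjusted limma p. Among these carriers the groups did not overlap for 4 lower genes and 2 higher ones, Ckmt1 (0.35) and Gpd2 (0.13). Of 61 mitochondrial ribosomal protein genes 44 were lower (median -0.05), with no overlap for 8 lower and 1 higher. Of 17 citric acid cycle genes 11 were lower (median -0.03), with no overlap for 3 lower and 0 higher. Of 33 import and chaperone genes 15 were lower (median 0.0052), with no overlap for 2 lower and 6 higher. Of 21 other assembly factors 13 were lower (median -0.01), and Tmem70, needed to assemble ATP synthase, read 113.4 and 78.3 against 144.7 and 156.7 (-0.59, SE 0.23), also with no overlap and an adjusted p of 1 in limma. Coenzyme Q synthesis had 2 of 6 genes lower (median 0.02).

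Of 24 measured regulators of mitochondrial gene expression, 17 were higher with Men1, with a median of 0.14. The 7 lower are 29.2%, where 53.0% of all named genes were lower, and 6 of the 24 were at control level in both groups. The groups did not overlap for 8, all higher, where 10.1% of all named genes were higher with no overlap. In limma 0 passed at an adjusted or an unadjusted p under 0.05. The list was chosen with earlier results of these data known, so these shares are a description only. Sp1 read 323.3 and 396.7 against 239.5 and 262.7 (0.49, SE 0.20), Pprc1, a coactivator related to PGC-1, 329.8 and 308.7 against 237.7 and 247.1 (0.38, SE 0.17), and Yy1 377.6 and 322.0 against 308.2 and 229.8 (0.37, SE 0.22). Myc read 369.7 and 401.5 against 312.0 and 186.4 (0.64, SE 0.28). All 4 had groups that did not overlap. Gabpa, the DNA-binding part of GABP, read 194.2 and 226.1 against 203.1 and 156.7 (0.21, SE 0.21), and Esrra differed by 0.09. Polrmt (-0.12), Creb1 (-0.11), Polg (-0.09) and Gabpb1 (-0.04) were above the controls on every array and lower, with overlapping groups. Ppara was also lower (-0.27), with overlap, and exceeded the controls on 3 arrays. Ppargc1a and Sirt1 did not exceed the controls on any array. Neither did Tfam, Nr1h3, Esrrb and Sirt3, which are counted among those higher.

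**Figure D4:**
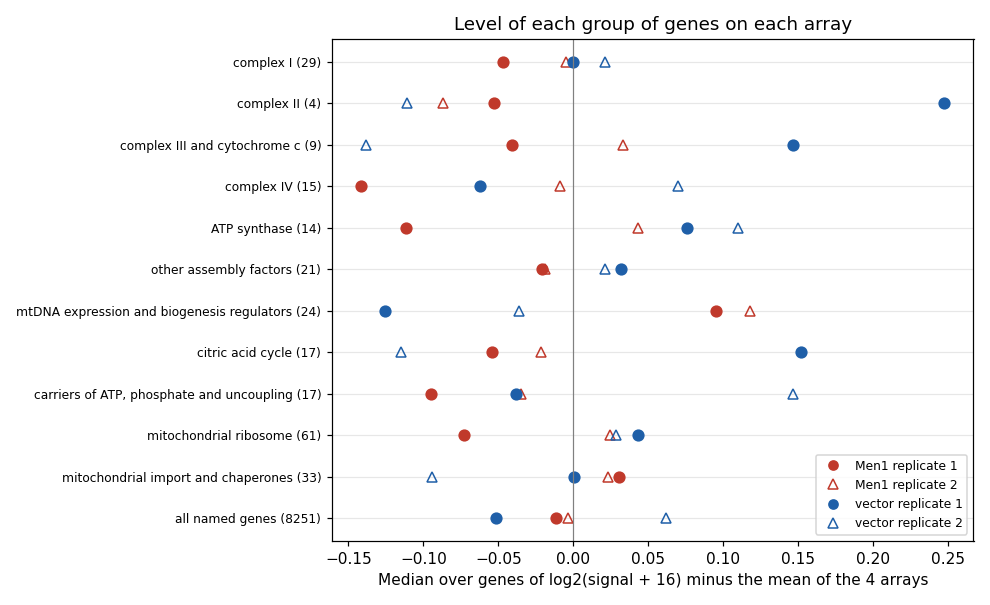
Median over the genes of each list of log2(signal + 16) minus the gene's mean over the 4 arrays; red is Men1, blue is vector, circles are replicate 1 and triangles replicate 2, and numbers in brackets count genes. Both Men1 arrays lie above both vector arrays for the regulators (0.09 and 0.12 against -0.13 and -0.04) and for import and chaperones. Both lie below both vector arrays for complex I, ATP synthase, the mitochondrial ribosome and the other assembly factors. Vector replicate 1 lies highest for complexes II and III, among other lists.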

How the data were processed

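Each array had 12488 probe set values. They are linear intensity as deposited, and the submitters' processing notes name Affymetrix Expression Console and MAS5. Tool versions and the scaling target are not given in the sources used here. Means without the top and bottom 2% of signals ran from 149.97 to 149.98, so arrays shared 1 scale, and medians from 50.0 to 62.4. The 66 control probe sets were left out and nothing further was normalized. Values were taken as log2(signal + 16) and fitted with limma 3.58.1 (lmFit, eBayes; R 4.3.3). P-values were two-sided and adjusted by Benjamini-Hochberg over 12422 probe sets, at a threshold of 0.05. The fit had 2 residual and 2.87 prior degrees of freedom and was tested on simulated data. Precision is limited by the number of arrays, and an exact permutation test of 2 against 2 arrays cannot give a p below 0.333.

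Names come from the platform annotation. All 101 member probe sets had gene IDs in a RefSeq table of GRCm38.p6. Values on every array were planned for the 4 genes of each complex with the smallest p, structural landmarks, tissue forms, genes with probe sets of opposite sign, Men1 and up to 3 genes of each other list. Further genes were named after their values were seen. Members and lists were chosen with earlier results of these data known. The 3′ to 5′ signal ratio was 1.08 to 1.18 for Actb and 0.850 and 0.804 on the Men1 against 0.782 and 0.743 on the vector arrays for Gapdh, whose groups did not overlap.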

Additional observations from a re-analysis of the deposited data

How the results depend on the processing

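Alternatives were other scalings, a pseudocount of 1, a mean signal of at least 50, an intensity trend, averaging the probe sets of a gene and leaving out each array. Keeping control probe sets in the fit, using plain-suffix probe sets only and using only genes above the controls were chosen after seeing the data. No member passed in any of these fits, and the smallest adjusted p was 0.576, without vector replicate 1. At an unadjusted limma p under 0.05 there was 1 of 101 member probe sets (0.99%) with quantile normalization, cyclic loess, a common median signal or the intensity trend, where 1.9% to 2.37% of all probe sets were. There were 2 (1.98%, against 2.69%) with a pseudocount of 1. When an array was left out there were 0 to 5. The 5 (4.95%) arose without vector replicate 1, where 8.30% of all probe sets were under this level, and without vector replicate 2, where 4.50% were. With the replicate block 0 members passed and 0 were under this level. The labels do not say that the numbers pair arrays. Deviations of like-numbered arrays correlated at 0.26 over all probe sets and -0.02 over member probe sets.

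When an array was left out, its group kept 1 array, which is assumed to vary like the others. The median of the members was then -0.10 to -0.0148. It was -0.0730 to -0.0265 for complex I, -0.28 to 0.061 for complex II, -0.15 to 0.15 for complex III, -0.26 to 0.0180 for complex IV and -0.16 to -0.0387 for ATP synthase. With plain probe sets it was -0.029 for the members, -0.10 for complex I and 0.0190 for ATP synthase, which was -0.0803 with probe sets averaged. Groups did not overlap for 33 to 50 genes, since fewer arrays separate more easily. These were 45.2% of members against 50.2% of all named genes without Men1 replicate 1, 60.3% against 52.2% without Men1 replicate 2, 64.4% against 72.7% without vector replicate 1, and 68.5% against 68.1% without vector replicate 2. Of the 73 genes 25 kept their sign in all 4 of these fits, 20 lower and 5 higher. Counts of kept or changed sign were not made over all named genes, so they are not read as a trait of the members. Sign changes were most frequent without vector replicate 1 (28 genes, against 15 to 16 for the other arrays).

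These differences changed sign when an array was left out, with the range over the 4 fits in brackets: Sdhd (-0.49 to 0.0437), Sdhb (-0.23 to 0.0035), Uqcrc2 (-0.61 to 0.20), Uqcrc1 (-0.48 to 0.19), Ndufaf4 (-0.34 to 0.36), Cox5a (-0.10 to 0.10), the brighter Cyc1 probe set (-0.25 to 0.11), Ndufs1 (-0.30 to 0.0974), Cox4i1 (-0.22 to 0.33), Sdha (-0.23 to 0.28), Ndufv1 (-0.52 to 0.17), Cycs (-0.25 to 0.32), Cox6c (-0.39 to 0.0886), Cox8c (-0.19 to 0.31), Cox7a1 (-0.39 to 0.35), Cox8b (-0.18 to 0.32), Atp5l (-0.0628 to 0.12), Cox7a2 (-0.27 to 0.0528), Uqcrq (-0.0080 to 0.18), Ndufv2 (-0.41 to 0.0659), Uqcr10 (-0.31 to 0.15), Sdhc (-0.34 to 0.27), Ndufb2 (-0.16 to 0.0771), Atp5g1 (-0.10 to 0.15), Atp5j (-0.0476 to 0.32), Cox6b1 (-0.46 to 0.19), Men1 (-0.31 to 0.10), Esrra (-0.0250 to 0.20), the dimmer Ndufb2 probe set (-0.0186 to 0.11), the dimmer Cox8b probe set (-0.72 to 0.15), the dimmer Cox6b2 probe set (-0.56 to 0.0432), the dimmer Atp5c1 probe set (-0.15 to 0.17) and the overlapping dim Atp5d probe set (-0.45 to 0.53). Under other scalings Cox5a, whose difference was -0.0002, was 0.0242 with quantile normalization, 0.0200 with cyclic loess, 0.0125 with a common median and 0.0120 with a common 75th percentile. The dimmer Atp5c1 probe set was -0.0133 with cyclic loess. The cause was not tested. The sign changes listed here cover only genes and probe sets for which a range was taken, and other members changed sign too. Some differences kept their sign but came close to 0 in 1 fit: the brighter Ndufa3 probe set (-0.40 to -0.0013), Atp5e (-0.38 to -0.0032), Atp5a1 (-0.35 to -0.0043), Cox7a2l (-0.40 to -0.0375), the brighter Atp5c1 probe set (-0.38 to -0.0385), Ndufa7 (-0.25 to -0.0286) and Gabpa (0.0421 to 0.39).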
